A study of Mus musculus with 116 samples.

Results

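Of the 40202 genes counted in these libraries, 3 were found in most single C10 cells and in almost no single SVEC cell: Trf, which encodes transferrin, Il16, which encodes interleukin 16, and Gm41724, a long non-coding RNA gene that has no functional name. C10 is a mouse line of alveolar type II epithelial cells and SVEC is a mouse endothelial line. The genes were chosen by detection alone. A gene had to have at least 1 read count in at least 80% of the C10 single-cell libraries and in at most 5% of the SVEC single-cell libraries, over libraries with at least 1000 gene counts. A total of 7 genes (0.0174% of all genes) met both limits. Crip1, Efemp1, Gm41958 and Gm35756 met them and were set aside by name, as were Crip2, Igfbp4, Cdh1 and all keratin and collagen genes, which leaves the 3 genes described here. Because detection in the 2 lines selected the genes, their difference between C10 and SVEC is given as a description with no test.

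The RNA came from nanoSPLITS, a way of dividing the lysate of very few cells, kept as a nanodroplet, so that RNA and protein can be measured from the same material. Only the RNA was analysed here. The C10 single-cell set held 48 libraries, of which 46 had enough counts, and the SVEC single-cell set held 48. An input series of C10 held 8 libraries of 1 cell, 6 of 3 cells and 6 of 10 cells. All groups were untreated cells in standard culture. Nothing in the labels says that libraries of a group came from separate cultures, so p-values measure only the spread between these libraries.

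Transferrin is the secreted glycoprotein that carries ferric iron in plasma and other body fluids. Cells take it up by endocytosis through the transferrin receptor, encoded by Tfrc, release the iron in the endosome and store the excess in ferritin, whose subunits are encoded by Fth1 and Ftl1. Interleukin 16 is made as a long precursor with PDZ domains. Its end is cut off and secreted and acts as an attractant for cells that carry CD4, while the rest of the precursor can enter the nucleus. The gene is best known from lymphocytes and has also been described in airway epithelium. For Gm41724 no function is known from its label. It lies near Lox, the gene of lysyl oxidase, which cross-links collagen and elastin.

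Sequencing depth differed between the sets. C10 single cells had 83188 to 5911755 gene counts (median 1881700), SVEC single cells 5122 to 2831907 (median 434945), and the input series 430798 to 15385625. In the input series 1 library stood apart: replicate 1 of the 1-cell group had 430798 counts on 538 genes, against a group median of 7568 genes, and no count of any of the 3 genes, so the values of the 1-cell group are also given without it. Few marker genes of the labelled cell types were found. Of 12 alveolar type II markers, 6 (Nkx2-1, Slc34a2 and the surfactant protein genes Sftpa1, Sftpb, Sftpc and Sftpd) had no count in any C10 or SVEC single cell. The list summed to a median of 1.81 read counts per 1000000 gene counts (CPM) in a C10 cell, with a range of 0 to 153. In an SVEC cell the median was 0 CPM, with a range of 0 to 921. Only Etv5 was found in at least 50% of the C10 cells (24 of 46, against 3 of 48 SVEC cells). Its C10 median was 0.182 CPM, where 3 counts equalled a median of 1.60 CPM in C10 and 6.95 CPM in SVEC. Its means were 3.53 and 1.82 CPM. The edgeR test between the lines, described below, did not call it (log2 difference 0.76, adjusted p = 0.509). Of 14 endothelial markers, none was found in at least 50% of the SVEC cells and 8 were at 0 there, with Cdh5 in 1 of 48. The endothelial list summed to a median of 0.596 and at most 48.3 CPM in a C10 cell. In an SVEC cell it summed to a median of 0 and at most 138 CPM. Of 3 endothelial markers in the edgeR test, Tek was called higher in C10 and Flt1 higher in SVEC. Of 2 alveolar type II markers 0 were called, beside 18.9% of all genes. How these lists bear on the 3 genes was not tested. Of 14 fibroblast and mesenchymal markers, 5 were found in at least 50% of the cells of each line, and the list summed to a median of 8793 CPM per C10 cell and 4908 CPM per SVEC cell. Vim and Dcn were found in all 46 C10 cells, while 5 of the 14 (Thy1, Lum, Tagln, Prrx1 and Tcf21) had no count in any. In the SVEC cells 3 of the 14 were at 0. The edgeR test covered 7 of the 14 and called 4 higher in C10 and 1 higher in SVEC. Of 8 leukocyte and erythroid markers, 6 were at 0 in the C10 cells, among them Ptprc and Cd3e. Cd68 was found in 4 and Itgam in 2 of the 46 C10 cells. The source of the Il16 reads was not tested. Levels below are CPM, not corrected for gene length, so they are compared between libraries and not between genes.

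**Figure D1:**
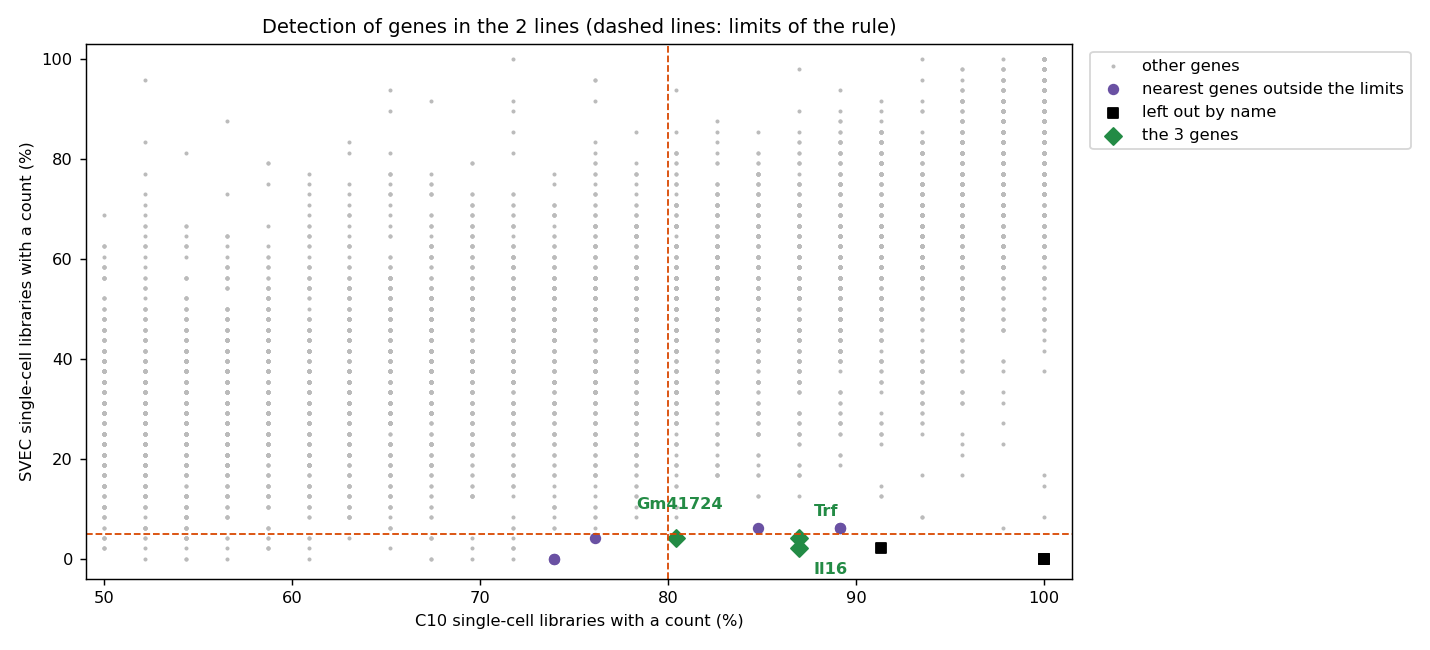
Detection of genes in the single cells of both lines: the percentage of the 46 C10 libraries with a count (x axis) against that of the 48 SVEC libraries (y axis), for genes found in at least 50% of the C10 cells. Dashed lines mark the limits of 80% and 5%; Trf, Il16 and Gm41724 lie near the left of the allowed corner, while Crip1, Efemp1 and Gm41958, set aside by name, share the point at 100% and 0%.

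The allowed corner was sparsely filled. A count was found in at least 80% of the C10 cells for 2823 genes, and the median of these genes was also found in 68.8% of the SVEC cells. Only 16 of the 2823 were found in at most 10% of the SVEC cells. Trf was found in 40 of 46 C10 cells and 2 of 48 SVEC cells, Il16 in 40 and 1, and Gm41724 in 37 and 2, so Gm41724 was the nearest to the C10 limit and Trf and Gm41724 were equally near the SVEC limit. Just outside the C10 limit were LOC118568750 (35 C10 and 2 SVEC cells), Ccdc68 (34 and 0) and Fuom (34 and 0). Just outside the SVEC limit were Spp1, the gene of osteopontin (41 and 3 cells), Gm39063 (41 and 3) and Zfp423 (39 and 3). Ccdc68 and Fuom had median levels of 106 and 66.6 CPM in C10 single cells, and Spp1 had 675 CPM. Membership therefore followed the limits closely: with the C10 limit at 70%, 11 genes qualified.

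Trf, the iron carrier, varied widely among single C10 cells. Its level ran from 0 to 2674 CPM with a median of 147 CPM and a mean of 410 ± 585 CPM (SD, n = 46). It was at 0 in 6 cells, under 10 CPM in 1, from 10 to under 100 CPM in 9, from 100 to under 1000 CPM in 25 and at 1000 CPM or more in 5. The 5 highest cells held 48.7% of the Trf level summed over all 46. The detected share was 87.0%, with an exact 95% binomial (Clopper-Pearson) interval of 73.7 to 95.1%, against 4.17% (0.509 to 14.3%) in SVEC.

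Where Trf was present in a C10 cell it was usually supported by many reads. The median count over all 46 cells was 411, and 39 of the 40 cells with a count had at least 10. The 6 cells without Trf had 83188 to 4728593 gene counts, and 4 of them had more than 1000000, where 3 counts would equal at most 3 CPM. The median depth of cells with and without Trf was 1881700 and 1824610 counts. Trf was thus missing from deeply read cells as well as from shallow ones.

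The input series, which took no part in the choice, held Trf in 17 of 20 libraries. Among the 1-cell libraries Trf was either at 0 or above 100 CPM: it had no count in replicates 1, 13 and 14, and 108, 356, 673, 1893.49 and 2150.89 CPM in the other 5. Replicates 13 and 14 had 13614523 and 7838544 gene counts, so the limit of 3 counts lay at 0.220 and 0.383 CPM. The 3-cell libraries all had Trf, with 109 CPM as the lowest, a median of 203 CPM and 2359.6 CPM as the highest. The 10-cell libraries had 162 to 638 CPM with a median of 341 CPM.

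The means were 648 ± 882 CPM for 1 cell (SD, n = 8), 564 ± 883 CPM for 3 cells (n = 6) and 367 ± 159 CPM for 10 cells (n = 6). The coefficient of variation, the SD divided by the mean, was 1.36, 1.57 and 0.433. Without replicate 10, the only one above 332 CPM, the 3-cell mean was 205 ± 81.1 CPM. Without replicate 1 the 1-cell mean was 740 ± 910 CPM, and without replicate 9 it was 433 ± 691 CPM. By median the order was 10 cells, 1 cell, 3 cells and single C10 cells, and the ranges of all 4 groups overlapped. Without replicate 1 the 1-cell libraries held Trf in 5 of 7 and had a median of 356 CPM, which put them above the 10-cell libraries.

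In SVEC, Trf was at 0 in 46 of 48 cells. Replicate 18 had 71 counts (138 CPM) and replicate 36 had 174 counts (91.8 CPM), both within the range of the C10 cells. Crip1, Efemp1 and Gm41958, present in every C10 cell, had no count in those 2 libraries. They met the same limits and had no count in any SVEC cell, so this does not set the 2 libraries apart. The histocompatibility genes H2-D1 and H2-K1 were at 1024 and 944 CPM in replicate 18 and at 1270 and 2838 CPM in replicate 36. Their levels in C10 cells are not given here, and the origin of these Trf reads was not tested. The remaining SVEC cells were often shallow: 3 counts equalled a median of 6.95 CPM and at most 586 CPM, so Trf at the lower levels seen in C10 was not detectable in every SVEC library.

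**Figure D2:**
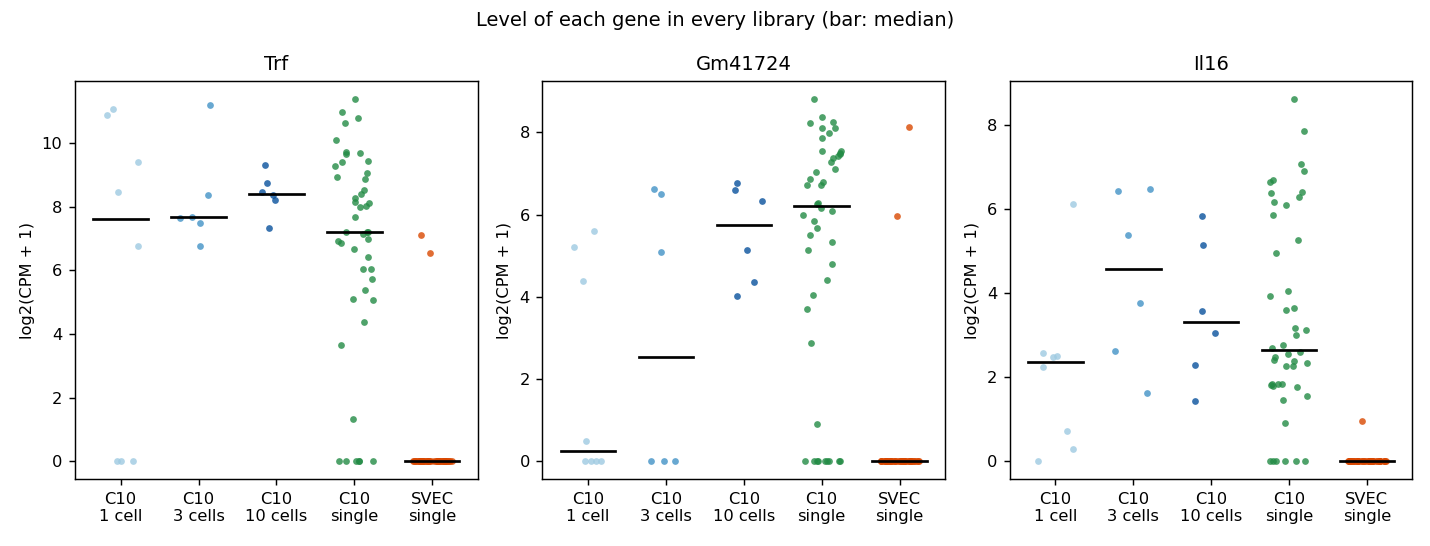
Level of Trf, Gm41724 and Il16 as log2(CPM + 1) in every library (1 point each) of the 3 groups of the C10 input series, the C10 single cells and the SVEC single cells, with black bars for medians. SVEC points lie on 0 except for 2, 2 and 1 libraries, and the C10 groups overlap for each gene.

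The genes that handle iron with Trf were looked at next. A list of 20 genes of iron transport and storage, written once the 3 genes were known, held none that met the detection limits, which 0.0174% of all genes met, and 11 of its genes were found often enough to be tested between the lines. The quasi-likelihood test of edgeR called 1754 of 9303 genes (18.9%) at an adjusted p under 0.05, 1337 higher in C10 and 417 higher in SVEC, and on this list 1 gene was called higher in C10 and 0 lower. That gene was Fth1, the ferritin heavy chain, with a log2 difference of 0.89 (SE 0.147, adjusted p = 8.00e-07). Its mean was 1888 ± 732 CPM in C10 (n = 46) and 1363 ± 842 CPM in SVEC (n = 48).

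The split of calls depended on scaling. With the size factors of the RLE method in edgeR, 645 genes were higher in C10 and 1087 in SVEC, and with DESeq2 374 and 914. The median log2 difference of all tested genes was 0.35 with the TMM factors used here and -0.36 with RLE factors. The call of Fth1 ended with RLE factors (0.24, adjusted p = 0.195) and with DESeq2 (0.25, adjusted p = 0.160). The median of the 11 iron genes was 0.74.

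Tfrc, the receptor that takes up transferrin, was found in 30 of 46 C10 cells and 26 of 48 SVEC cells. It averaged 46.3 ± 108 CPM over C10 cells and 129 ± 218 CPM over SVEC cells, with a log2 difference of -1.31 (SE 0.742) that did not pass the edgeR test (adjusted p = 0.236). Ftl1, the ferritin light chain, was present in every cell of both lines, with medians of 5473 CPM in C10 and 5494 CPM in SVEC. Its log2 difference was 0.31 (edgeR adjusted p = 0.103) with TMM factors and -0.34 (adjusted p = 0.0117) with RLE factors, so its direction depended on the scaling. Hmox1, the enzyme that frees iron from heme, was found in 37 C10 and 16 SVEC cells and did not pass the edgeR test (0.97, adjusted p = 0.362).

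Tfr2, the second transferrin receptor, and Meltf, a transferrin family member anchored to the cell surface, had no count in any single cell of either line, and Tfr2 was found in 1 of the 20 input libraries. Ltf, which encodes lactotransferrin, the relative of transferrin found in milk and neutrophils, had counts in 1 C10 single cell and in 2 of 8, 1 of 6 and 3 of 6 libraries of 1, 3 and 10 cells, at medians of at most 0.0677 CPM. Fth1 differed widely between the C10 sets: its median was 16490, 18110 and 17594 CPM in the 1-cell, 3-cell and 10-cell libraries and 1772 CPM in the C10 single cells. No such gap was seen for Trf, with medians of 232, 203, 341 and 147 CPM.

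Il16 was found in as many C10 cells as Trf, but mostly with few reads. Its level ran from 0 to 390 CPM with a median of 5.26 CPM and a mean of 37.4 ± 71.3 CPM (SD, n = 46). It was at 0 in 6 cells, under 10 CPM in 22, from 10 to under 100 CPM in 13 and from 100 to under 1000 CPM in 5. The median count was 12.5, and 25 of the 40 cells with a count had at least 10. The 5 highest cells held 56.6% of the summed level, so most of the Il16 signal came from few cells. The detected share was 87.0% (exact interval 73.7 to 95.1%) in C10 and 2.08% (0.0527 to 11.1%) in SVEC.

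Detection of Il16 went with depth. Of the 6 C10 cells without it, 5 were in the lowest 25% of the C10 cells by depth, and 2 had more than 1000000 gene counts. The median depth of these 6 cells was 502812 gene counts, against 2119770 in the 40 cells with it. At an equal depth of 100000 counts per library, the share of C10 cells expected to show at least 1 count was 53.6% for Il16, against 88.9% as sequenced (n = 45). The same calculation gave 85.8% against 88.9% for Trf and 75.8% against 80% for Gm41724. In SVEC cells at that depth (n = 42) the expected shares were 0.223% for Il16, 4.76% for Trf and 4.76% for Gm41724. These shares come from the counts that selected the genes and are a description. At that depth only Trf would have met the limit of 80%.

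The only SVEC cell with Il16, replicate 17, had 1 count (0.937 CPM) among 1066994. At 500000 counts per library, where 41 C10 and 22 SVEC cells remained, the expected share was 84.4% in C10 and 2.13% in SVEC. A single read among so many gives little information on the level of Il16 in that cell.

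**Figure D3:**
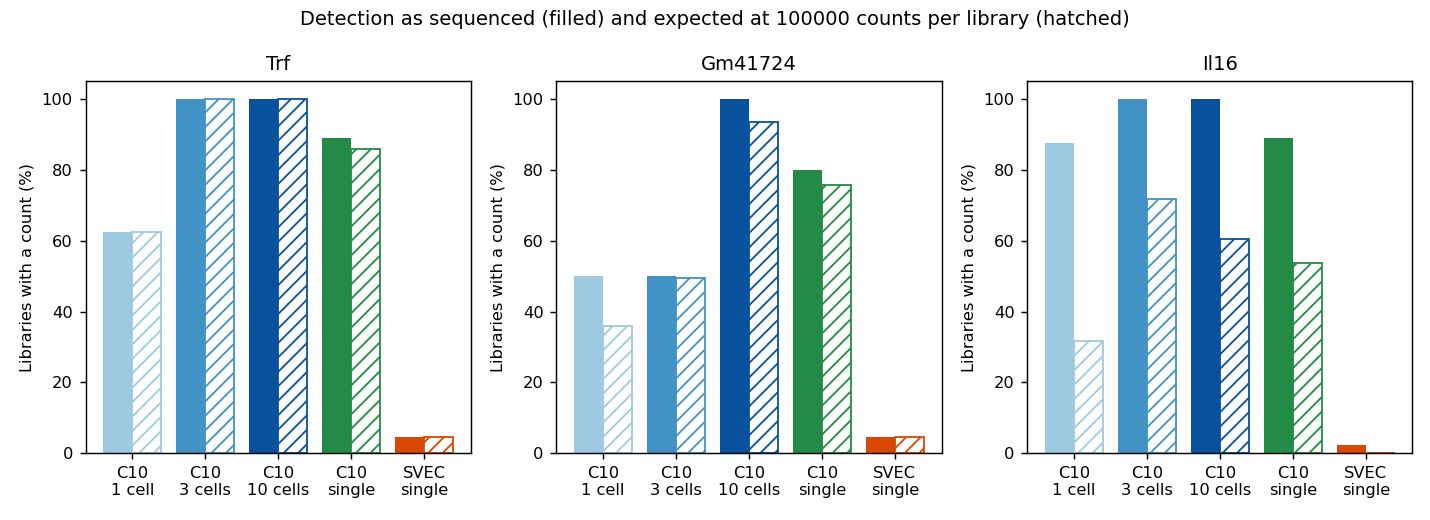
Percentage of libraries with a count of Trf, Gm41724 and Il16 in each group as sequenced (filled bars) and as calculated for 100000 gene counts in every library (hatched bars), leaving out shallower libraries. Il16 in C10 single cells goes from 88.9 to 53.6%, while Trf goes from 88.9 to 85.8%.

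In the input series Il16 was found in 19 of 20 libraries, the exception being replicate 1 of the 1-cell group. Only 5 of the 8 libraries of 1 cell had at least 10 counts, and replicates 13 and 14 had 3 and 5. At 100000 counts the expected share of 1-cell libraries was 31.6%, against 87.5% as sequenced. Of the 8 libraries of 1 cell, 6 held Il16 at 0.220 to 4.94 CPM, while replicate 10 held 68.5 CPM. The median was 4.12 CPM and the mean 10.9 ± 23.4 CPM, or 2.67 ± 2.27 CPM without replicate 10. Without replicate 1, Il16 was in 7 of 7, with a median of 4.55 CPM and a mean of 12.5 ± 24.8 CPM. The 3-cell libraries had 2.10 to 87.6 CPM with a median of 26.5 CPM (38.8 ± 39.2 CPM). The 10-cell libraries had 1.68 to 55.5 CPM with a median of 9.11 CPM (19.0 ± 21.5 CPM), and their mean without replicate 6 was 11.7 ± 13.3 CPM. By median the order was 3 cells, 10 cells, single C10 cells and 1 cell, with overlap between all 4 groups.

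The genes that act with interleukin 16 were compared in the same way. Of 8 such genes, written as a list once the 3 genes were known, 7 could be tested between the lines and edgeR called none, beside 18.9% of all genes, with a median log2 difference of -0.56. Cd9, described as an alternative receptor, had an unadjusted p of 0.0221 and was the only one under 0.05. DESeq2 called 2, namely Cd9 and Hspa8, and limma none. Cd4, the main receptor, had no count in the 46 C10 cells and counts in 1 SVEC cell.

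Cd9 was found in 46 C10 and 43 SVEC cells, with medians of 312 and 604 CPM. Its log2 difference was -0.74 (SE 0.318, edgeR adjusted p = 0.0952) and passed the threshold with RLE factors (-1.46, adjusted p = 0.000248). Pdzd2, the PDZ-domain gene most related to Il16, was found in 41 C10 and 27 SVEC cells, with medians of 2.11 and 1.35 CPM. Hdac3, which encodes a histone deacetylase that binds the nuclear precursor, was found in 35 C10 and 22 SVEC cells and did not pass the edgeR test (-0.29, adjusted p = 0.842).

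Gm41724, annotated as a long non-coding RNA in RefSeq for assembly GRCm38.p6, was the steadiest of the 3 among the C10 single cells. Its level ran from 0 to 447 CPM with a median of 72.8 CPM and a mean of 109 ± 111 CPM (SD, n = 46). The coefficient of variation was 1.02, against 1.43 for Trf and 1.91 for Il16. It was at 0 in 9 cells, under 10 CPM in 2, from 10 to under 100 CPM in 14 and from 100 to under 1000 CPM in 21. The detected share was 80.4%, with an exact 95% binomial interval of 66.1 to 90.6%.

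The 9 C10 cells without Gm41724 had 264137 to 2762241 gene counts, and 7 of them had more than 1000000. Of the 37 cells with it, 35 had at least 10 counts. As with Trf, deeply read cells occurred both among those with Gm41724 and among those without it.

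In the input series Gm41724 was found in 13 of 20 libraries. The 1-cell libraries had it in 4 of 8, with 0 as the lowest, a median of 0.209 CPM and 47.9 CPM as the highest. Of these, replicate 10 had only 5 counts. Without replicate 1 it was in 4 of 7, with a median of 0.418 CPM and a mean of 14.9 ± 20.2 CPM. The 3-cell libraries had it in 3 of 6, at 32.8, 89.4 and 97.2 CPM, and the other 3 were at 0 with at least 6889508 gene counts. The 10-cell libraries all had it, from 15.2 to 107 CPM with a median of 57.0 CPM. Means were 13.0 ± 19.4, 36.6 ± 45.8 and 58.7 ± 40.5 CPM for 1, 3 and 10 cells, and the 1-cell mean without replicate 9 was 8.07 ± 14.5 CPM. By median the order was single C10 cells, 10 cells, 3 cells and 1 cell, and every range overlapped that of its neighbour.

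In SVEC, replicate 1 had 63 counts of Gm41724 (277 CPM) and replicate 2 had 11 (61.2 CPM), which lie within the C10 range. They had 227244 and 179659 gene counts, and neither was among the 22 SVEC cells with 500000 or more counts, of which none had Gm41724. Crip1, Efemp1 and Gm41958 were at 0 in both, as in every SVEC cell. The 2 SVEC cells with Trf, the 2 with Gm41724 and the 1 with Il16 were 5 different cells, so no SVEC cell held more than 1 of the genes.

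**Figure D4:**
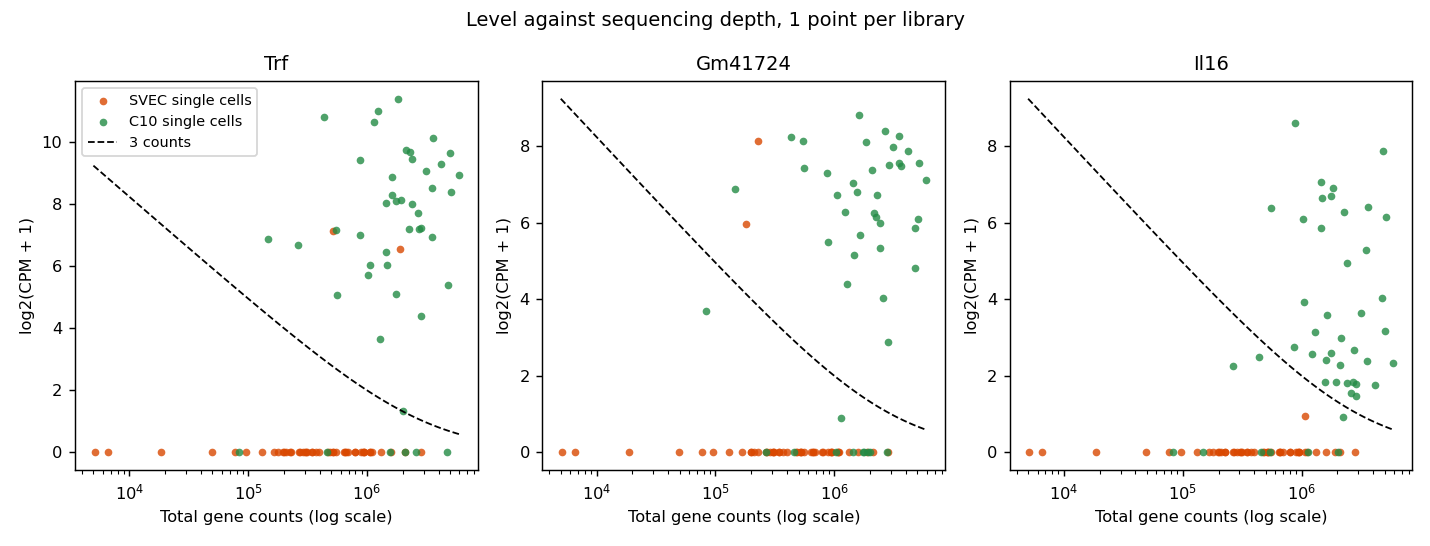
Level of each gene as log2(CPM + 1) against the total gene counts of the library on a log scale, for C10 (green) and SVEC (orange) single cells; the dashed line is the level that 3 counts give. Trf, Gm41724 and Il16 are at 0 in 4, 7 and 2 C10 cells with over 1000000 counts. Of the 6 C10 cells without Il16, 5 are in the lowest 25% by depth.

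Most C10 cells held all of these genes. All 3 were present in 29 of 46 C10 cells, 2 in 14, 1 in 2 and none in 1, a mean of 2.54 ± 0.69 genes per cell. The cell without any, replicate 7, had 459165 gene counts, with Crip1 at 2110 CPM and Efemp1 at 118 CPM. Crip1 and Efemp1 met the same limits and had a count in every C10 cell. In the input series the mean number of the 3 genes per library was 2.00 ± 1.20 for 1 cell (2.29 ± 0.95 without replicate 1), 2.50 ± 0.55 for 3 cells and 3 in all 6 libraries of 10 cells. At 100000 counts per library the expected numbers were 1.30, 2.21 and 2.54.

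The genes did not rise and fall together from cell to cell to any large degree. Over the 46 C10 cells, Pearson's r of log2(CPM + 1) was 0.24 between Trf and Gm41724, 0.26 between Trf and Il16 and 0.12 between Gm41724 and Il16. With log2 total counts, which all 3 share, r was 0.20 for Trf, 0.19 for Gm41724 and 0.28 for Il16. These values describe 1 set of libraries, in which weak correlations are no finding. Trf and Gm41724 were found together in 32 cells, Trf and Il16 in 36, and Gm41724 and Il16 in 33.

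Against genes of similar detection in C10, Trf and Il16 were variable and Gm41724 was ordinary. Of 1002 genes with a count in at least 80% and under 90% of the C10 cells, the median coefficient of variation was 1.03. That of Trf was higher than in 83.0% of these genes, that of Il16 higher than in 93.8% and that of Gm41724 higher than in 49.2%. These genes were matched on detection and not on level. The median CPM of Il16 was above that of 14.7% of them, that of Gm41724 above 61.7% and that of Trf above 91.3%. Whether the spread of Il16 went with its low level was not tested.

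Between input sizes, none of the 3 genes passed the test. In edgeR's model of the 20 libraries, 1456 of 13645 genes (10.7%) were called between 10 cells and 1 cell, 866 (6.35%) between 3 cells and 1 cell and 0 (0%) between 10 and 3 cells, and 0 of the 3 genes were called in each. These totals rest on single libraries: without replicate 1 of the 1-cell group they were 336 and 32, and without replicate 10 of that group 2769 and 2035. Between 3 cells and 1 cell, leaving out any of the 1-cell replicates 1, 2, 5, 9, 13 and 14 gave 32 to 223 calls. For 10 cells against 1 cell the log2 difference was -1.08 (SE 1.37, adjusted p = 0.942) for Trf, 1.89 (SE 1.88, adjusted p = 0.851) for Gm41724 and 0.72 (SE 1.43, adjusted p = 0.994) for Il16. For 3 cells against 1 cell, Il16 had the largest value, 2.01 (SE 1.45, adjusted p = 0.644), beside 1.29 (SE 1.86) for Gm41724 and -0.31 (SE 1.34) for Trf. For 10 against 3 cells the values were -0.77 (SE 1.43), 0.60 (SE 2.01) and -1.28 (SE 1.57) for Trf, Gm41724 and Il16.

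With standard errors above 1.3 on the log2 scale, differences of the size seen could not be told from the spread. The direction for Trf was not stable: limma on log2(CPM + 1) gave 2.58, 2.37 and 0.21 for 10 against 1, 3 against 1 and 10 against 3 cells, where edgeR gave negative values. Leaving out replicate 10 of the 3-cell group turned the last to 0.68 in edgeR, and the value for 3 cells against 1 cell was 0.25 without replicate 9 of the 1-cell group. The lowest unadjusted p of the 9 values was 0.178, for Il16 between 3 cells and 1 cell, and DESeq2 and limma called none of the 3 genes either. Between 10 and 3 cells, where edgeR called 0 of all genes, 1346 had an unadjusted p under 0.05, DESeq2 called 294 and limma 35. The 10-cell and 3-cell contrasts share the 1-cell libraries as their reference. The median log2 difference of all genes was 0.36, 0.12 and 0.09 in the 3 contrasts.

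The 3 genes lie on 3 different chromosomes. In the RefSeq annotation of GRCm38.p6, used only for names and gene order since no build is named for the counts, up to 3 genes on each side gave 15 neighbours listed in the count tables, of which 5 were found often enough to test. None of the 15 met the detection limits, which few genes meet. Lox, separated from Gm41724 only by the pseudogene Gm18151, was found in 45 of 46 C10 and 33 of 48 SVEC cells, with medians of 446 and 159 CPM. Its log2 difference was 1.24 (SE 0.459, edgeR adjusted p = 0.0433), and with RLE factors it was 0.53 (adjusted p = 0.473).

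Stard5, beside Il16, encodes a sterol-binding transfer protein and was found in 40 C10 and 16 SVEC cells. Its mean was 131 ± 114 CPM in C10 and 38.4 ± 77.0 CPM in SVEC, a log2 difference of 2.02 (SE 0.646, edgeR adjusted p = 0.0160) that fell short with RLE factors (1.34, adjusted p = 0.142). Lox and Stard5 were the 2 of the 5 that edgeR called, beside 18.9% of all genes, both higher in C10, and DESeq2 called neither. The median of the 5 was 0.99. Srprb, beside Trf, encodes the beta subunit of the signal recognition particle receptor and was found in 41 C10 and 25 SVEC cells. Its log2 difference of 0.99 (SE 0.566) did not pass (edgeR adjusted p = 0.244).

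On the far side the nearest genes analysed were found in few cells. The gene 1300017J02Rik beyond Trf had counts in 1 C10 cell, Zfp474 beyond Gm41724 in none, and Cfap161 beyond Il16 in 4 C10 cells and 1 SVEC cell. Further out beyond Trf, Topbp1, a gene of DNA replication and repair, was found in 14 C10 and 17 SVEC cells, with means of 15.8 ± 34.8 and 44.0 ± 84.3 CPM. The pseudogenes Gm18151 and Phgdh-ps1, of which the latter overlaps Il16 in that annotation, were not analysed here. As the strand setting of the counting is not given in the sources used here, reads of Il16 and of an overlapping or antisense transcript cannot be told apart.

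**Figure D5:**
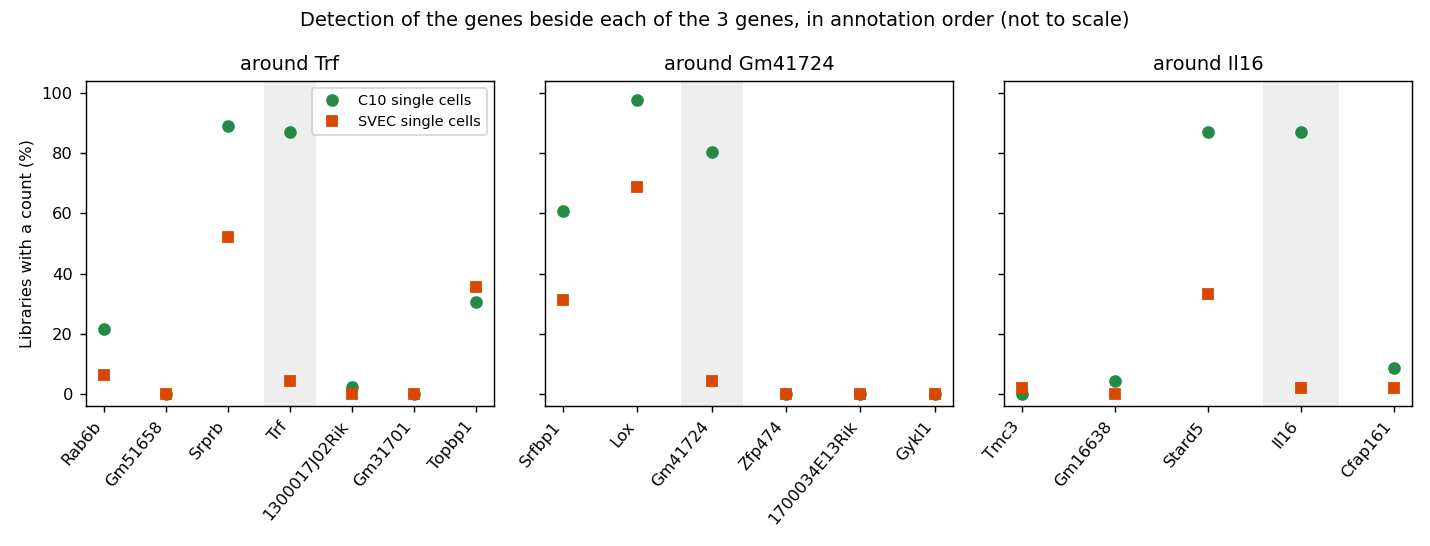
Percentage of C10 (circles) and SVEC (squares) single cells with a count for each gene in annotation order around Trf, Gm41724 and Il16 (shaded), with even spacing that is not to scale. Srprb, Lox and Stard5 are found in both lines, at 41, 45 and 40 of 46 C10 cells and 25, 33 and 16 of 48 SVEC cells.

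The genes whose level over all 114 libraries was most like the mean of the 3 were largely those set aside by name. Pearson's r of log2(CPM + 1), a description over libraries of 5 groups that mainly reflects the line, was 0.83 for Crip1, 0.81 for Efemp1, 0.79 for Igfbp4, 0.79 for 4930525G20Rik and 0.76 for Gm41958, among 20783 genes ranked. Of these, 4930525G20Rik was not restricted: it was found in 46 C10 and 37 SVEC cells, with medians of 211 and 6.33 CPM. Crip1, found in every C10 single cell at a median of 1011 CPM, was at 154, 263 and 440 CPM in the 1-cell, 3-cell and 10-cell libraries. Gm41724, Efemp1 and Gm41958 had the same order of medians over these 4 groups as Crip1, with the single cells highest and the 1-cell libraries lowest. The single cells and the input series are separate sets of unlike depth, and these 1-cell medians include replicate 1. The part of the set in this order therefore cannot be told apart. Igfbp4 and 4930525G20Rik did not have that order.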

How the data were processed

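Each library was deposited as a table of whole-number read counts for 40202 gene symbols and 5 closing counters. Per the labels' protocols, cDNA was made with SMART-Seq v4 Plus and read as single reads on a NextSeq instrument. FastQC, STAR and HTSeq are named in the submitters' processing notes, while versions, build, annotation and strand are not given in the sources used here. As the labels mention no molecular identifiers, PCR copies may be counted separately. The binomial intervals cover only the sampling of libraries with and without a count. The closing counters were left out. The counter of reads not aligned alone made up 14.6 to 95.1% of the total of gene counts and counters.

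Of 116 libraries, 114 had at least 1000 gene counts. Levels are CPM; correlations used log2(CPM + 1). Equal-depth detection is the hypergeometric expectation. Tests used edgeR 4.0.16 in R 4.3.3 (TMM, quasi-likelihood, Benjamini-Hochberg adjusted p under 0.05) over genes with a count in at least 50% (input series) or 25% (single cells) of the libraries of a group; DESeq2 1.42.0 and limma 3.58.1 were alternatives. The single-cell fit was added for the partner and neighbour genes. Symbols matched RefSeq GRCm38.p6 for 38730 genes. No libraries were duplicates (lowest chi-square per degree of freedom 3.23). The code was tested on simulated data. All 3 genes are named, with the 3 nearest genes outside each limit and the 5 most correlated. The genes and all lists were chosen with earlier results of these data known; the iron, interleukin 16 and neighbour lists were written once the genes were known. The values of 1 listed gene are not reported here.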

Additional observations from a re-analysis of the deposited data

Results flagged for a closer look

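Of 9 sets of values tested with Dixon's gap test (3 genes in 3 input groups), 2 held a library far from the others. The nominal rate of 1 in 20 would give 0.45. That rate assumes normally distributed values, and these CPM are skewed and include 0, so it is no measure of chance here. Trf in replicate 10 of the 3-cell libraries was at 2359.6 CPM (25609 of 10853094 counts), while the other 5 libraries lay between 109 and 332 CPM. Il16 in replicate 10 of the 1-cell libraries was at 68.5 CPM (819 of 11957603 counts), while the other 7 lay between 0 and 4.94 CPM. Both values lay within the range of the C10 single cells, which reached 2674 CPM for Trf and 390 CPM for Il16.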

How the results depend on the processing

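No alternative called Trf, Gm41724 or Il16 in the input series, over 225 values (lowest adjusted p = 0.0837), but Trf changed sign over them in each contrast (-1.46 to 2.58, -1.42 to 2.37 and -1 to 0.68). Over all genes, 10 cells against 1 cell gave 48 calls without the filter on low counts, and 336 to 2769 leaving out 1 library (1-cell replicates 1 and 10). For 3 cells against 1 cell there were 537 with RLE factors, 121 with limma, 65 without the filter, and 32 to 2035 leaving out 1 library (1-cell replicates 1 or 9, and 10). For 10 against 3 cells DESeq2 called 294 and limma 35. Same-numbered libraries hardly correlated (mean r of same-numbered deviations -0.0033, 0.022, 0.016 and, C10 with SVEC, 0.0034). With 6 pairs in each input contrast, this cannot show that a number marks no shared handling. With number as a block, 0 genes were called in both 1-cell contrasts and 3095 between the lines.

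All alternatives between the lines, and the limit of 500000 counts below, were chosen after seeing the data. Between the lines there were 3223 calls with limma and 5437 unfiltered. Iron genes called numbered 3 with limma, unfiltered or over libraries of at least 100000 counts, and 5 with the block. Interleukin 16 partners called numbered 2 with RLE factors or DESeq2 and 1 with library totals or unfiltered. Neighbours called numbered 0 with RLE factors or DESeq2, 1 with library totals and 5 unfiltered. With RLE factors and DESeq2, Ftl1 turned to -0.34 in both and Hspa8 (0.05 in edgeR) to -0.69 and -0.70.

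The number of genes chosen was 5 with 3 or more counts required (Flg, Insl5 and LOC118568594 joined, Gm41724 left), 0 at 90% of C10 cells, 11 at 70%, 0 with no SVEC cell allowed, 11 at 10% of SVEC cells, 6 over libraries of at least 500000 counts (Trf left) and 1, Trf, at an expected depth of 100000. At that depth 10-cell libraries held 2.54 of the 3 genes. Depth limits the detection of Il16 and what an absence in SVEC shows.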

Other observations

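Looser limits brought in genes of other kinds beside Trf, Gm41724 and Il16. With detection in at least 70% of C10 cells they were Ccdc68, Fgf10, Fuom, Gm32027, LOC118568750, Plcl2, Ramp1 and Serpinb9b. With up to 10% of SVEC cells allowed they were Flg, Glipr1, Gm21119, Gm36187, Gm39063, Mgst2, Spp1 and Zfp423. Fgf10 encodes a fibroblast growth factor, Ramp1 a receptor activity modifying protein and Mgst2 a microsomal glutathione S-transferase. Ccdc68 was found in 5 of 8, 5 of 6 and 6 of 6 libraries of 1, 3 and 10 cells, with medians of 70.9, 91.5 and 74.4 CPM, and Fuom in 6, 6 and 6, with 43.7, 48.8 and 61.4 CPM. Spp1 had medians of 492.9, 792 and 1119 CPM in the same groups. These names came from the limits and were chosen after their values were seen.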
